A study of Mus musculus with 15 samples.

Results

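The transcription factor p53 raises the transcription of a long list of genes when DNA is broken, when telomeres become too short to be capped, or when ribosomes or nutrients fail. The best known of these act in a short loop on p53 itself and on the cell cycle and apoptosis machinery (Mdm2, Cdkn1a, Ccng1, Bax, Bbc3). Many others act further out: they degrade or stabilize mRNA, dampen growth signaling, repair DNA, supply nucleotides, relay death receptor signals or alter the cell surface and metabolism. The 35 genes described here are such targets beyond the feedback loop, named individually from textbook knowledge, and grouped by role into RNA decay and translation (3 genes), survival signaling and nutrient sensing (5), DNA repair, nucleotide supply and replication stress (6), death receptors and cell death (7), kinases and cell cycle (3), cell surface, signaling and secreted proteins (4), and metabolism and other functions (7). They were found by symbol among 45706 genes, all 35 were present, and all 35 passed the filter on low counts, as did 18983 genes in all. The list was chosen with earlier results of these data known, and some of its genes belong to a p53 gene collection that the study displayed from these same libraries. The direction of the 35 genes here, and their counts beside those of all genes, are therefore not independent evidence.

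The study asked how loss of the BH3-only protein PUMA, encoded by Bbc3, alters bone marrow failure in mice that lack telomerase RNA (mTerc). LSK stem and progenitor cells (lineage negative, Sca-1 and Kit positive) from CD45.2 C57BL/6J donors were passed through irradiated CD45.1 recipients in succession, and RNA was taken from femoral marrow of the secondary recipients after magnetic depletion of lineage positive cells. There were 15 libraries from 4 donor genotypes: WT (3 libraries), Puma-/- with intact telomerase (4), third-generation telomerase knockouts with PUMA, G3 mTerc-/-Puma+/+ (4), and third-generation double knockouts, G3 mTerc-/-Puma-/- (4). Every group shares irradiation and serial transplantation, the knockouts are constitutive, and the labels give no sort of donor from recipient cells and no ages. By the study's methods the donors were young adult mice, and secondary recipients were taken when ill or at a fixed end point months after transfer. The labels number the replicates without saying whether each is a separate recipient, so p-values measure only the spread between these libraries, which may be partly technical.

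The libraries held between 102790519 and 158367059 reads assigned to genes. Values are normalized CPM, counts scaled to a common library size, and 3 counts correspond to at most 0.0296 CPM in any library. The cells were lineage negative by their preparation, and the libraries had Kit at 114 to 165 and Ptprc at 254 to 379 CPM. The 6 progenitor markers summed to 762 to 1390 CPM. Genes of mature cells were present too: late neutrophil markers summed to 338 to 4510 CPM and plasma cell markers to 488 to 2310 CPM. Terc was at or below 0.00984 CPM in every mTerc-/- library against 0.0356 to 0.158 in the others. Bbc3 itself went against one label: it was at 5.04 to 6.83 CPM in Puma-/- but at 13.5 to 17.1 CPM in the libraries labelled G3 mTerc-/-Puma-/-, as high as in G3 mTerc-/-Puma+/+ (11.8 to 20.8 CPM), so the PUMA genotype of those libraries rests on their label, and double knockout is used here as the name of that label. G3 mTerc-/-Puma-/- replicate 2 stood apart from the rest, with Flt3 at 3.45 CPM against 57.2 to 187 elsewhere and mature erythroid markers summing to 1070 CPM against 15.4 to 159. It is left out of the tests below, which use 14 libraries, and is given beside them. The Puma-/- libraries had Xist at 466 to 868 CPM and the Y-linked Ddx3y at 0.0448 CPM or less, while the G3 mTerc-/-Puma+/+ libraries had Ddx3y at 42.8 to 48.3 CPM, so sex and genotype cannot be told apart between these groups. Ddx3y was also higher in every WT and G3 mTerc-/-Puma-/- library than in any Puma-/- library. A difference in sex therefore goes with every comparison that uses Puma-/-. In whole marrow fractions, more cells of a type and more RNA per cell cannot be told apart either.

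Most of the 35 genes were higher where telomerase was missing, by small amounts. Against WT, the shift was about as large in Puma-/-, with telomerase intact, as in G3 mTerc-/-Puma+/+ (given below). Of the 35, 3 (Zmat3, Phlda3 and Eda2r) lay higher in every telomerase-deficient library than in any other, as 0.0790% of all genes did. Comparing G3 mTerc-/-Puma-/- with Puma-/-, 28 of 35 had a log2 fold change above 0, with a median of 0.29, while 52.0% of all genes tested did, with a median of 0.0092. Comparing G3 mTerc-/-Puma+/+ with WT, 25 of 35 were above 0 with a median of 0.094, against 54.5% of all genes with a median of 0.018. In the quasi-likelihood test of edgeR, with p-values adjusted over all genes by the Benjamini-Hochberg method, 2 of 35 rose in G3 mTerc-/-Puma-/- against Puma-/- (Zmat3 and Phlda3) and none fell, where 0.306% of all genes were called either way. With the Xist level in the model, Zmat3 (log2 1.90, adjusted p = 0.0182) and Phlda3 (2.24, adjusted p = 0.0167) were still called, among 33 of 18983 genes. Without Xist in the model, 14 of 35 were higher at an unadjusted p under 0.05 and none lower, where 3.51% and 4.90% of all genes were. The groups of this comparison did not overlap for 10 members that were higher and 2 that were lower, and for 9.57% of all genes.

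None of the 35 was called in G3 mTerc-/-Puma+/+ against WT by edgeR or limma-voom, which called 0.0369% and 0.0316% of all genes either way. DESeq2 called 3 there (Zmat3, Phlda3 and Eda2r) and 0.243% of all genes. At an unadjusted p under 0.05 in edgeR, 7 members were higher and 2 lower, where 1.59% and 2.28% of all genes were. These 2 groups did not overlap for 7 members that were higher (Zmat3, Phlda3, Eda2r, Tnfrsf10b, Aen, Ei24 and Rps27l) and 1 that was lower (Sdc1), and for 4.07% of all genes.

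**Figure D1:**
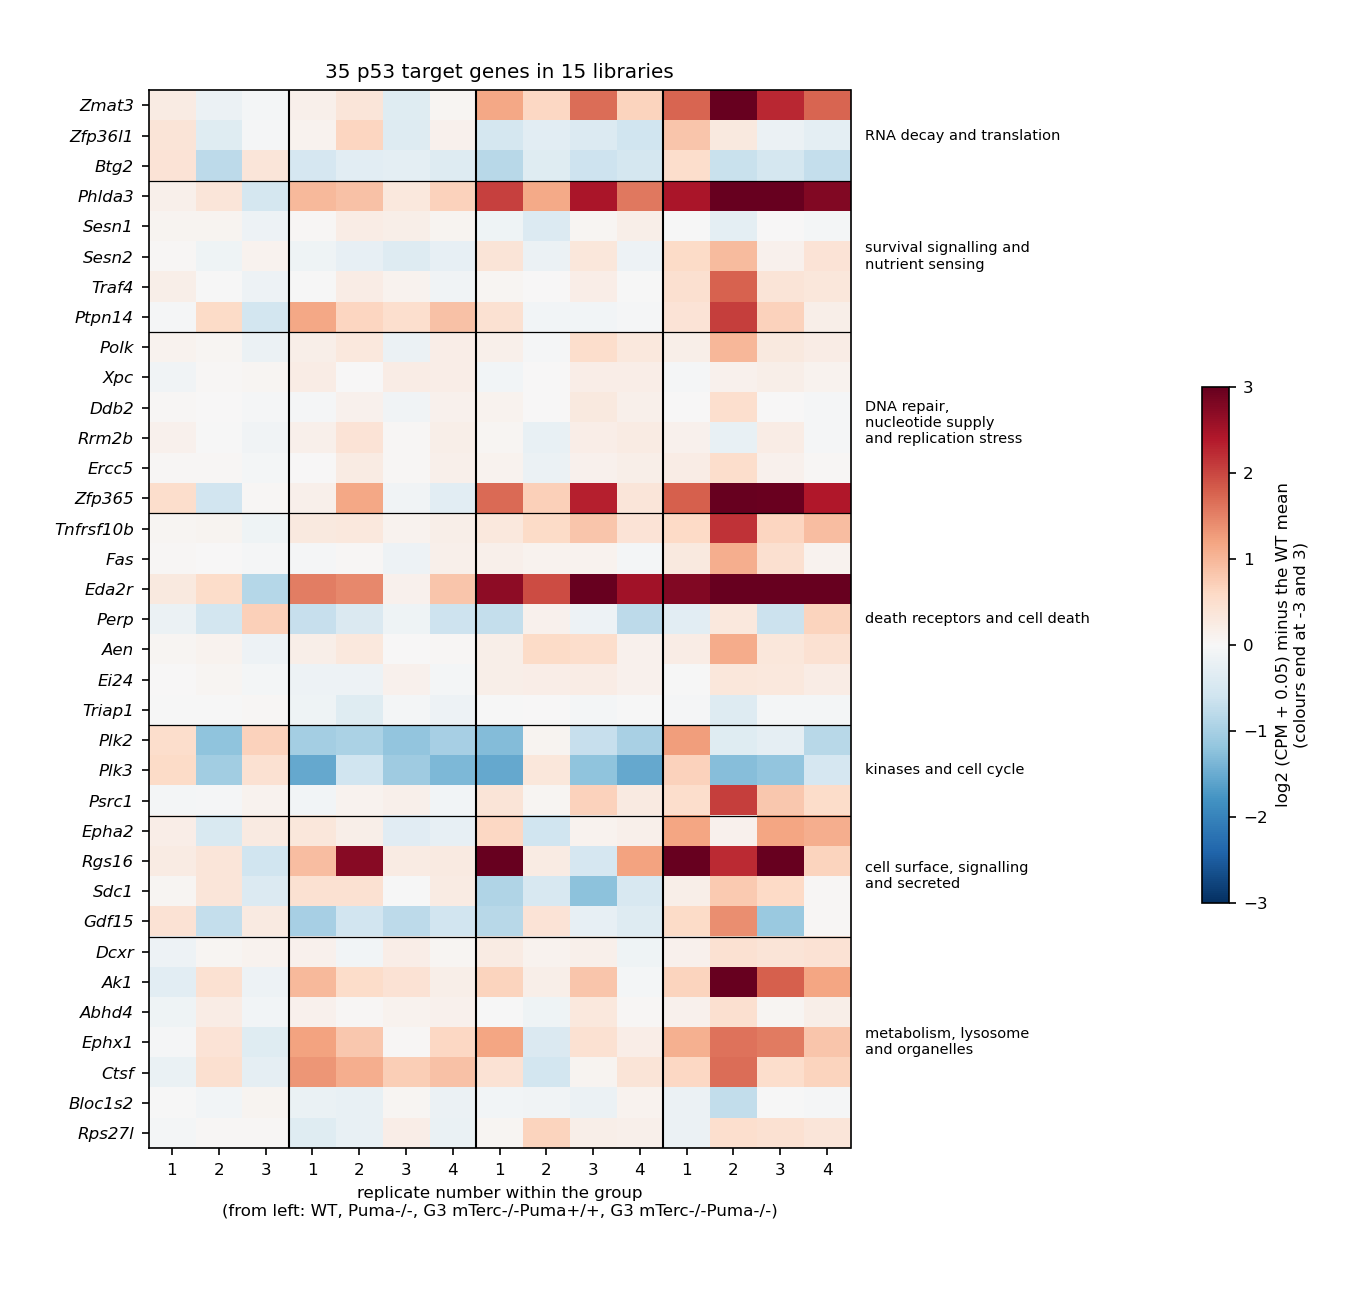
The heatmap gives each of the 35 genes (rows, ordered by role) in each of 15 libraries (columns, by group) as log2 of its normalized CPM (plus 0.05) minus the mean of the WT libraries, with colors ending at -3 and 3. Zmat3, Phlda3 and Eda2r are above WT in all 8 mTerc-/- libraries, and G3 mTerc-/-Puma-/- replicate 2 holds the highest value of 22 genes.

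Between the telomerase-deficient groups, 28 of 35 genes were again above 0 in those labelled G3 mTerc-/-Puma-/-, compared with G3 mTerc-/-Puma+/+, with a median of 0.26, against 46.3% of all genes with a median of -0.015. Here edgeR and limma-voom called none of the members and 0.0738% and 0.0632% of all genes, and DESeq2 called 2 (Epha2 and Sdc1) and 0.908% of all genes. At an unadjusted p under 0.05, 7 were higher and none lower, where 4.37% and 1.84% of all genes were. The groups did not overlap for 6 members, all higher (Zmat3, Epha2, Sdc1, Traf4, Zfp36l1 and Ctsf), and for 5.56% of all genes.

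On the background with telomerase, Puma-/- against WT, 24 of 35 were above 0 with a median of 0.093, against 50.9% of all genes. That median was close to the 0.094 of G3 mTerc-/-Puma+/+ against WT, so a small rise over WT was seen with telomerase intact too. There edgeR and limma-voom called none and 0.0790% and 0.0579% of all genes, and DESeq2 called 1 (Ctsf) and 0.747% of all genes. At an unadjusted p under 0.05, 4 were higher and 3 lower, where 5.77% and 4.38% of all genes were. Tnfrsf10b and Ctsf were higher and Triap1 lower without overlap, as were 9.7% of all genes in either direction.

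Against WT, the libraries labelled G3 mTerc-/-Puma-/- differed in both labelled genotypes: 27 of 35 were above 0 with a median of 0.25, and 3 rose (Phlda3, Zmat3 and Eda2r), where 0.0474% of all genes were called higher. A further count at an unadjusted p under 0.05 gave 14 higher and none lower, where 3.71% and 1.74% of all genes were, and 18 members were higher and 1 lower without overlap, against 8.51% of all genes. Between the single mutants, G3 mTerc-/-Puma+/+ against Puma-/-, 23 of 35 were above 0 with a median of 0.12, against 49.9% of all genes, and 1 fell (Sdc1), where 0.564% of all genes were called lower. At an unadjusted p under 0.05, 10 were higher and 4 lower, where 8.19% and 8.96% of all genes were, and 3 were higher and 3 lower without overlap, against 10.8% of all genes. These comparisons share libraries with each other, so their counts are not separate pieces of evidence. With replicate 2 included, the members' median was 0.445 in G3 mTerc-/-Puma-/- against Puma-/-, 0.468 against G3 mTerc-/-Puma+/+ and 0.41 against WT. Without G3 mTerc-/-Puma+/+ replicate 1 it was 0.054 in that group against WT. In Puma-/- against WT it was 0.0555 without WT replicate 2 and 0.00692 without Puma-/- replicate 2. Between the single mutants it lay between 0.062 and 0.0772 when Puma-/- replicate 3 or G3 mTerc-/-Puma+/+ replicate 1, 2 or 3 was left out.

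The interaction term, which tests whether the difference between mTerc-/- and mTerc+/+ groups was itself unequal between the labelled Puma genotypes, called none of the 35 in edgeR, limma-voom or DESeq2, which called 0.0527%, 0.0263% and 0.338% of all genes. The term was above 0 for 22 of 35 with a median of 0.14, against 48.8% of all genes. That median was 0.0272 without G3 mTerc-/-Puma-/- replicate 3, 0.08 without WT replicate 2, 0.252 without G3 mTerc-/-Puma+/+ replicate 1 and 0.306 with all 15 libraries. At an unadjusted p under 0.05, 7 were above 0 (Plk2, Plk3, Epha2, Btg2, Sdc1, Sesn2 and Zmat3) and none below, where 2.40% and 2.53% of all genes were. For no member was a difference established between the telomerase step in the libraries labelled Puma+/+ or WT and that in the libraries labelled Puma-/-, and Bbc3 did not follow those labels.

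Taking the groups in turn, the mean was highest in G3 mTerc-/-Puma-/- for 19 of 35 genes and lowest in WT for 20, and 10 genes had means in the order WT, Puma-/-, G3 mTerc-/-Puma+/+, G3 mTerc-/-Puma-/-. Every mTerc-/- library lay above every mTerc+/+ library for 3 genes, Zmat3, Phlda3 and Eda2r, with and without replicate 2. No member had every mTerc-/- library below every mTerc+/+ library, as 0.0790% of all genes had. The plot of levels by library shows these 3 genes beside others that the results turn on.

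**Figure D2:**
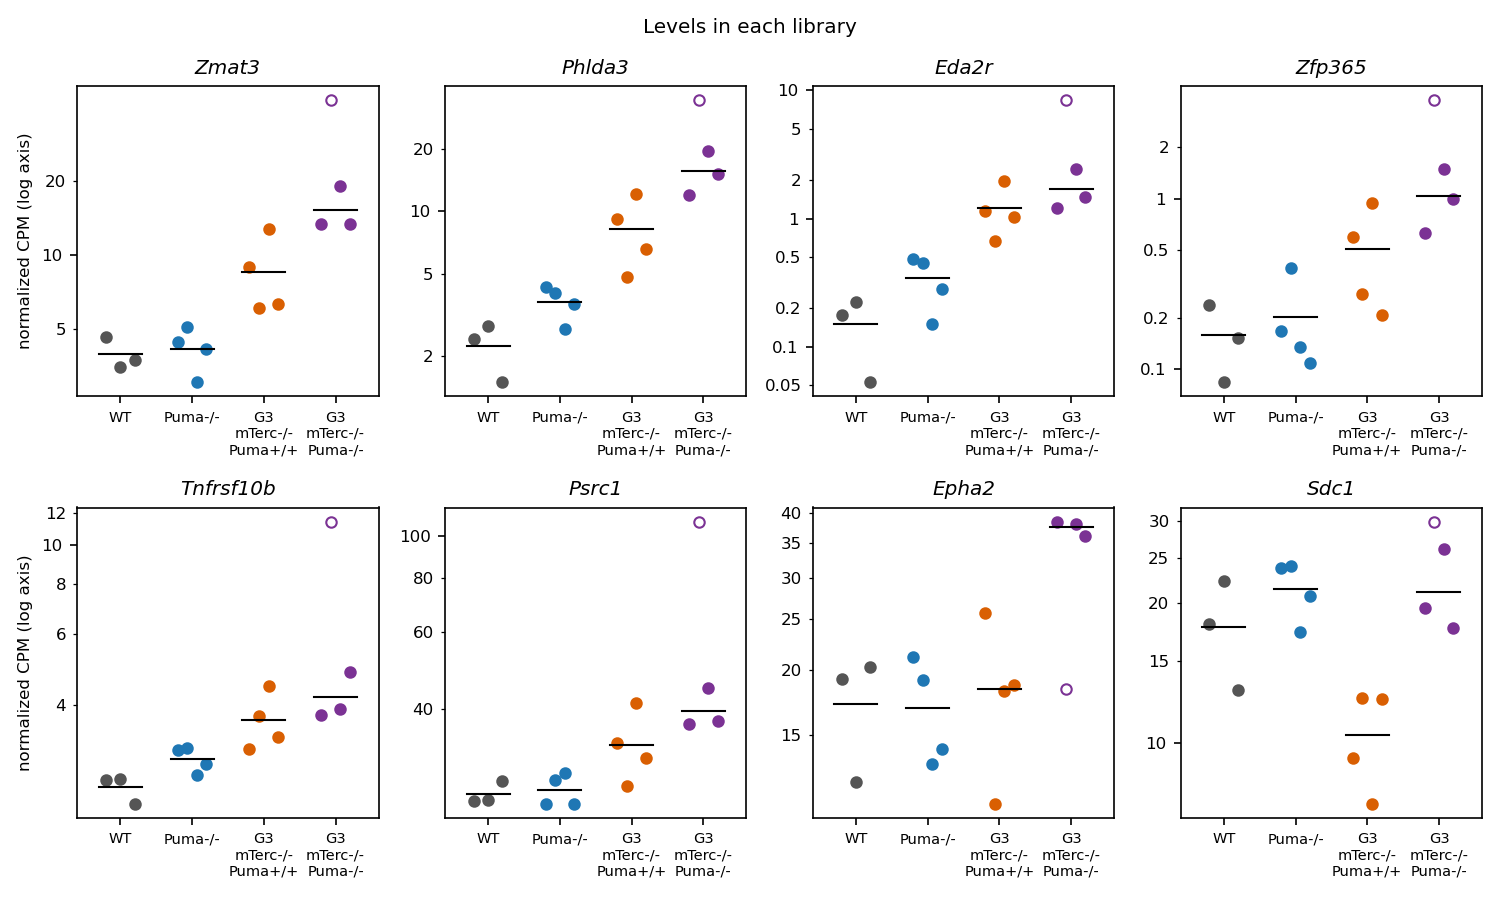
Each panel plots the normalized CPM of one gene (log axis) in each library (points) by group, with the group mean over the 14 tested libraries as a line and G3 mTerc-/-Puma-/- replicate 2 as an open point. For Zmat3, Phlda3 and Eda2r all points of both mTerc-/- groups lie above all points of WT and Puma-/-, while Sdc1 is lowest in G3 mTerc-/-Puma+/+.

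Zmat3 (ENSMUSG00000027663, GRCm38 chr3:32334792-32366014, minus strand) encodes a zinc finger protein that binds RNA and alters the stability and splicing of its target transcripts. It stood at 4.67, 3.52 and 3.77 CPM in WT replicates 1 to 3 and at 4.43, 5.09, 3.06 and 4.15 CPM in Puma-/- replicates 1 to 4. Among G3 mTerc-/-Puma+/+ libraries it was at 8.92, 6.09, 12.7 and 6.35 CPM, and in G3 mTerc-/-Puma-/- at 13.4, 42.4, 19.1 and 13.3 CPM. The 2 groups with telomerase overlapped each other, the telomerase-deficient PUMA-proficient group lay above both, and the double knockouts lay higher still, replicate 2 highest of all. Group means were 3.99 ± 0.607 (SD, n = 3), 4.18 ± 0.843 (n = 4), 8.52 ± 3.06 (n = 4) and 15.3 ± 3.29 CPM (n = 3, without replicate 2). Zmat3 rose 3.65-fold in G3 mTerc-/-Puma-/- against Puma-/- (log2 fold change 1.87, SE 0.253, adjusted p = 0.00594) and 3.83-fold against WT (1.94, SE 0.279, adjusted p = 0.0177). The latter call was lost in 4 of 12 other settings at a log2 fold change of 1.90 to 2.47 (adjusted p 0.0529 to 0.163: all 15 libraries in edgeR or limma-voom, the replicate block and the immediate early covariate) and when any WT replicate or G3 mTerc-/-Puma-/- replicate 3 was left out (0.0768 to 0.155). In G3 mTerc-/-Puma+/+ against WT the fold was 2.14 (log2 1.1, SE 0.260) with an adjusted p of 0.461, and in an exact two-sided permutation test p was 0.0286, the smallest that 4 against 3 libraries allow.

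Phlda3 (ENSMUSG00000041801, GRCm38 chr1:135766119-135769136, plus strand) encodes a small pleckstrin homology domain protein that competes with AKT for membrane lipids and so restrains AKT signaling. Its level was 2.41, 2.81 and 1.5 CPM in WT, and 4.32, 4.04, 2.70 and 3.55 CPM in Puma-/-. It was 9.19, 4.84, 12.1 and 6.56 CPM in G3 mTerc-/-Puma+/+, and 12.0, 34.4, 19.5 and 15.2 CPM in G3 mTerc-/-Puma-/-. The telomerase-deficient groups lay above both others with no overlap, while they overlapped each other only through the highest G3 mTerc-/-Puma+/+ library. Phlda3 rose 4.26-fold in G3 mTerc-/-Puma-/- against Puma-/- (log2 2.09, SE 0.300, adjusted p = 0.00686) and 6.95-fold against WT (2.80, SE 0.342, adjusted p = 0.00693). The first call was lost without G3 mTerc-/-Puma-/- replicate 3 (adjusted p = 0.0555), and the latter without WT replicate 1 (0.0554) or WT replicate 3 (0.0593). Against WT, G3 mTerc-/-Puma+/+ was 3.65-fold higher (1.87, SE 0.318) with an adjusted p of 0.106, which became 0.0244 when its replicate 2, the lowest of its group, was left out.

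Eda2r (ENSMUSG00000034457, GRCm38 chrX:97333840-97377216, minus strand), a tumor necrosis factor receptor family member that binds ectodysplasin A2, was scarce in WT marrow, at 0.0257 CPM per kilobase of exon. Its level was 0.178, 0.223 and 0.0532 CPM in WT, from 6 to 24 counts, and 0.487, 0.454, 0.152 and 0.282 CPM in Puma-/-. It reached 1.15, 0.669, 1.96 and 1.02 CPM in G3 mTerc-/-Puma+/+ and 1.22, 8.39, 2.44 and 1.47 CPM in G3 mTerc-/-Puma-/-. Both telomerase-deficient groups lay above both others, and they overlapped each other. The gene rose in G3 mTerc-/-Puma-/- against WT, 11.2-fold (log2 3.49, SE 0.566, adjusted p = 0.0444), a call that was lost in 9 of 12 other settings at a log2 fold change of 3.30 to 4.47 (adjusted p 0.056 to 0.307), limma-voom and all 15 libraries among them, and kept in only 3 of 14 fits that left out 1 library (those without Puma-/- replicate 3 or G3 mTerc-/-Puma+/+ replicate 2 or 3). The difference was 4.94-fold against Puma-/- (2.30, SE 0.474, adjusted p = 0.0636) and, in G3 mTerc-/-Puma+/+ against WT, 7.92-fold (2.98, SE 0.542, adjusted p = 0.128). The exact permutation p was at its smallest, 0.0286, in both of these.

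Eda2r and Phlda3 are shown here with the sequence around their start because they moved together without overlap, and because both starts have a promoter window in RefSeq (GRCm38.p6, 250 bases before the start and 50 after), which was available for 29 of the 35 genes in 39 windows. The windows are Phlda3, chr1:135765835-135766134, plus strand, 71.7% GC, and Eda2r, chrX:97377160-97377459, minus strand, 50.3% GC, against a median of 61% over the windows of the 35 genes and 52.7% over all 32851 windows. All letters are in lower case because neither window held any of the motifs searched, on either strand: the p53 decamer consensus (the repeated unit of a p53 response element), the serum response element and TGACG. That says only that these letters are not in these windows.
Phlda3: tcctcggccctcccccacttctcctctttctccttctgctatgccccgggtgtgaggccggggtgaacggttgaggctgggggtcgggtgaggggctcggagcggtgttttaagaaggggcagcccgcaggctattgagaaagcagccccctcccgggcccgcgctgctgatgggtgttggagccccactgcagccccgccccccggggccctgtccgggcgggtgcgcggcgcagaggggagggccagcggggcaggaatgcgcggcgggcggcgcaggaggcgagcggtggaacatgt
Eda2r: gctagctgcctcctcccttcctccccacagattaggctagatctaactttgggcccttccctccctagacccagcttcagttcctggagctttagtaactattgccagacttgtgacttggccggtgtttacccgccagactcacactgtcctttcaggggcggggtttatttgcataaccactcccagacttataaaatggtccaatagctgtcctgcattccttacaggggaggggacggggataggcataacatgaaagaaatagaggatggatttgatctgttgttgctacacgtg

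Zfp365, which encodes a zinc finger protein that acts against replication stress and protects fragile sites and telomeres, had the same outline at a lower level and with more spread. It was at 0.237, 0.0838 and 0.151 CPM in WT and at 0.168, 0.391, 0.134 and 0.109 CPM in Puma-/-, from 9 to 44 counts. Its level was 0.595, 0.276, 0.945 and 0.206 CPM in G3 mTerc-/-Puma+/+ and 0.630, 3.79, 1.5 and 0.996 CPM in G3 mTerc-/-Puma-/-. The double knockouts lay above both telomerase-proficient groups, while the PUMA-proficient knockouts overlapped both. Its level was 5.15-fold higher in G3 mTerc-/-Puma-/- than in Puma-/- (log2 2.37, SE 0.558, adjusted p = 0.112).

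**Figure D3:**
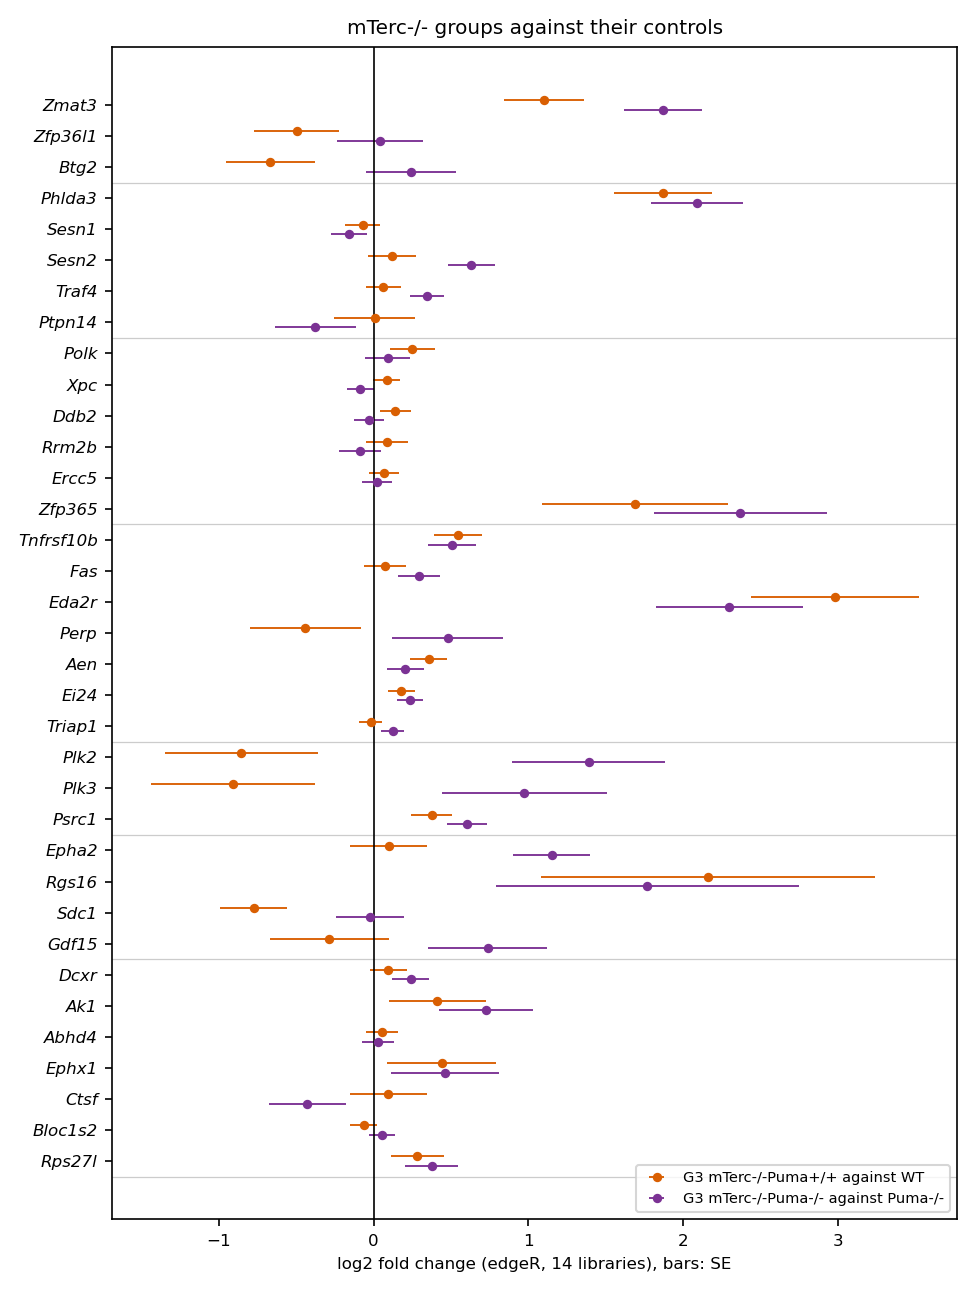
For each of the 35 genes the plot gives the log2 fold change (points) with its SE (bars) for G3 mTerc-/-Puma+/+ against WT and for G3 mTerc-/-Puma-/- against Puma-/-, from the 14 libraries. Zfp365, Eda2r, Phlda3 and Zmat3 lie farthest to the right in the comparison of the groups labelled Puma-/-, from 1.87 to 2.37.

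Among the genes of death receptors and cell death, all 7 were above 0 in G3 mTerc-/-Puma-/- against Puma-/-, with a median of 0.29, and Eda2r moved most. Tnfrsf10b, the mouse death receptor for TRAIL, was at 2.61, 2.63 and 2.28 CPM in WT, 3.09, 3.13, 2.68 and 2.85 in Puma-/-, 3.11, 3.75, 4.46 and 3.34 in G3 mTerc-/-Puma+/+ and 3.78, 11.4, 3.92 and 4.83 CPM in G3 mTerc-/-Puma-/-. All WT libraries lay below all others, and the double knockouts lay above Puma-/- without overlap. It was 1.42-fold higher in G3 mTerc-/-Puma-/- than in Puma-/- (adjusted p = 0.285) and 1.46-fold higher in G3 mTerc-/-Puma+/+ than in WT (adjusted p = 0.857), with an exact permutation p of 0.0286 in each. Aen, an exonuclease linked to DNA breakdown in apoptosis, was at 31.8, 32.8 and 27.8 CPM in WT, 34.5, 38.2, 31.0 and 31.7 in Puma-/-, 34.7, 45.4, 44.1 and 33.7 in G3 mTerc-/-Puma+/+ and 35.9, 66.2, 38.7 and 42.5 CPM in G3 mTerc-/-Puma-/-. Both telomerase-deficient groups lay above WT but not above Puma-/-. The difference in G3 mTerc-/-Puma+/+ against WT was 1.28-fold (adjusted p = 0.998).

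Fas, the receptor of Fas ligand, lay close to 3 CPM in most libraries: from 2.84 to 2.97 in WT, 2.63 to 3.24 in Puma-/-, 2.77 to 3.23 in G3 mTerc-/-Puma+/+ and, without replicate 2, 3.13 to 4.10 CPM in G3 mTerc-/-Puma-/-. The double knockouts lay above WT and overlapped the other groups, with the replicate left out highest at 6.20 CPM. Triap1, a small mitochondrial protein that carries phospholipid, lay at 29.5 to 30.5 CPM in WT and at 23.3 to 28.8 CPM in Puma-/-, without overlap (log2 -0.17, SE 0.0731, adjusted p = 0.464). Ei24, an endoplasmic reticulum protein of autophagy and cell death, was at 56.4, 57.8 and 53.6 CPM in WT, 50.2, 50, 61.2 and 53.9 in Puma-/-, 63.3, 63.8, 65.4 and 61.0 in G3 mTerc-/-Puma+/+ and 55.3, 71.3, 69.3 and 65.5 CPM in G3 mTerc-/-Puma-/-. G3 mTerc-/-Puma+/+ lay above WT without overlap, by 1.13-fold (adjusted p = 0.998). Perp, a membrane protein of cell junctions and apoptosis, ranged from 2.05 to 5.95 CPM with overlap of all groups.

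In the group of DNA repair and nucleotide supply, Zfp365 was the exception. The remaining genes, which recognize damage (Ddb2, Xpc), cut around it (Ercc5), copy past it (Polk) or supply deoxynucleotides (Rrm2b), had small differences: in G3 mTerc-/-Puma-/- against Puma-/- 3 of 6 genes of the group were above 0, with a median of -0.0052. In G3 mTerc-/-Puma+/+ against WT all 6 were above 0, with a median of 0.11. Ddb2 lay between 10.4 and 13.6 CPM in the 14 libraries and Xpc between 85.6 and 108 CPM, and in both genes every group overlapped WT. Rrm2b lay between 7.79 and 12.1 CPM. Polk was at 12.7 to 13.9 CPM in G3 mTerc-/-Puma-/- and 10 to 12.2 CPM in WT, without overlap (1.17-fold, log2 0.23, SE 0.154, adjusted p = 1). Ercc5 was at 20.7 to 23.5 CPM against 19.2 to 20.6 CPM, also without overlap (1.09-fold, log2 0.13, SE 0.104, adjusted p = 1). With Puma-/- and G3 mTerc-/-Puma+/+ included, Polk ranged from 10 to 16.2 CPM and Ercc5 from 17.9 to 23.9 CPM. None of these 5 had an adjusted p under 0.05 in any comparison. Ddb2 shares 23.8% of its exonic bases with Acp2 on the opposite strand and Rrm2b 8.04% with Gm49085, and whether strand was used in counting is not given in the sources used here.

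Genes of survival signaling and nutrient sensing followed Phlda3 only in part. Sesn2, a leucine sensor that restrains mTORC1, was at 16.1, 14.4 and 16.8 CPM in WT, 14.5, 13.2, 12.0 and 13.2 in Puma-/-, 20.5, 13.9, 19.9 and 14.1 in G3 mTerc-/-Puma+/+ and 23.4, 30.5, 17.3 and 20.8 CPM in G3 mTerc-/-Puma-/-. The double knockouts lay above WT and above Puma-/-. The difference from Puma-/- was 1.55-fold (log2 0.63, SE 0.153, adjusted p = 0.125, exact permutation p = 0.0286). Sesn2 also belongs to the targets of ATF4, the factor of the integrated stress response. Of 14 other ATF4 targets, 13 were above 0 in this comparison with a median of 0.13, and none had an adjusted or an unadjusted p under 0.05 in edgeR. Its paralog Sesn1 went the other way in that comparison: it was at 39.2 to 44.3 CPM in Puma-/- and 36.3 to 38.0 CPM in G3 mTerc-/-Puma-/-, without overlap, and its log2 fold change was -0.16. Traf4, an adaptor of the TRAF family, was nearly flat over the first 3 groups at 11.2, 9.90 and 8.92 CPM in WT, 9.90, 11.7, 10.7 and 9.30 in Puma-/- and 10.3, 10.1, 11.5 and 9.90 in G3 mTerc-/-Puma+/+. The double knockouts were at 13.9, 34.0, 13.1 and 12.7 CPM, above every library of the other groups. The step over G3 mTerc-/-Puma+/+ was 1.26-fold (log2 0.34, SE 0.112, adjusted p = 0.488, exact permutation p = 0.0286). Ptpn14, a phosphatase that restrains YAP, was at 1.36, 2.08 and 0.939 CPM in WT, 3.14, 2.19, 1.98 and 2.58 in Puma-/-, 1.91, 1.31, 1.30 and 1.35 in G3 mTerc-/-Puma+/+ and 1.87, 6.02, 2.27 and 1.58 CPM in G3 mTerc-/-Puma-/-. Puma-/- had the highest mean of the 14 libraries and lay above G3 mTerc-/-Puma+/+ without overlap, where it was 1.69-fold lower (adjusted p = 0.144).

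Psrc1, a microtubule regulator of the mitotic spindle, was the member of the kinase and cell cycle group with the tightest values. It was at 24.5, 24.7 and 27.2 CPM in WT and 24.2, 27.4, 28.4 and 24.2 CPM in Puma-/-. Libraries of G3 mTerc-/-Puma+/+ were at 33.4, 26.6, 41.3 and 30.8 CPM, and in G3 mTerc-/-Puma-/- at 36.9, 108, 44.6 and 37.4 CPM. The double knockouts lay above both groups with telomerase, and the PUMA-proficient knockouts overlapped them through replicate 2. The difference between G3 mTerc-/-Puma-/- and Puma-/- was 1.52-fold (log2 0.60, SE 0.128, adjusted p = 0.0728, exact permutation p = 0.0286), and that between G3 mTerc-/-Puma+/+ and WT 1.30-fold (0.38, SE 0.130, adjusted p = 0.998).

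The 2 kinases of the group, Plk2 and Plk3, were high in 2 of 3 WT libraries and in 1 library of each mTerc-/- group. Both are stress-responsive polo-like kinases, and with Btg2, an antiproliferative cofactor of mRNA deadenylation, they are also immediate early genes, which cells switch on within minutes of a stimulus. Plk2 was at 11.6, 3.44 and 13 CPM in WT, 3.97, 4.15, 3.49 and 4.01 in Puma-/-, 3.23, 8.46, 4.95 and 4.09 in G3 mTerc-/-Puma+/+ and 19.4, 6.25, 6.69 and 4.48 CPM in G3 mTerc-/-Puma-/-. Plk3 was at 41.3, 13.3 and 38.2 CPM in WT, 9.45, 18.2, 13.1 and 10.8 in Puma-/-, 9.51, 34.8, 12.0 and 9.50 in G3 mTerc-/-Puma+/+ and 44.5, 11.4, 12.1 and 19.4 CPM in G3 mTerc-/-Puma-/-. In both, WT replicates 1 and 3, G3 mTerc-/-Puma+/+ replicate 2 and G3 mTerc-/-Puma-/- replicate 1 were the high libraries. Btg2 was high in 3 of these, at 162 and 157 CPM in WT replicates 1 and 3 and 175 CPM in G3 mTerc-/-Puma-/- replicate 1, against 68.5 to 99.2 CPM elsewhere.

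The same 4 libraries had the highest sums over 18 other immediate early genes: 7550 and 8020 CPM in WT replicates 1 and 3, 5570 in G3 mTerc-/-Puma+/+ replicate 2 and 7590 in G3 mTerc-/-Puma-/- replicate 1, against 1870 to 4510 CPM in the remaining 11 libraries. None of those 18 genes was at 0 in any library. All 18 had a log2 fold change below 0 in both G3 mTerc-/-Puma+/+ against WT and Puma-/- against WT, with medians of -0.84 and -0.72, and all 18 had an interaction term above 0, with a median of 1.3. The interaction terms of Plk2 (2.24, SE 0.698, adjusted p = 0.701), Plk3 (1.88, SE 0.752, adjusted p = 0.929) and Btg2 (0.91, SE 0.409, adjusted p = 0.989) stood beside these. With the mean of the immediate early genes in the model, an alternative chosen after seeing the data, the interaction term of Btg2 was -0.0938 and its log2 difference in G3 mTerc-/-Puma+/+ against WT was 0.0464, in place of -0.67. The part of these genes in the results was not tested further.

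**Figure D4:**
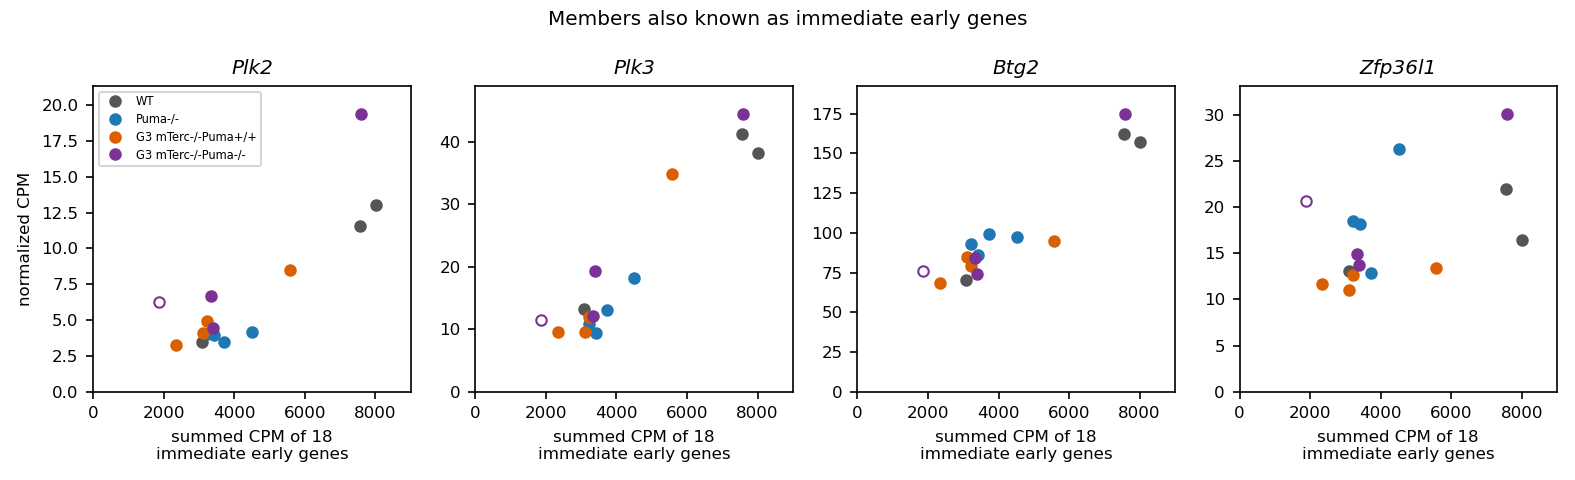
The panels plot the normalized CPM of the 4 members that are also immediate early genes, Plk2, Plk3, Btg2 and Zfp36l1 (vertical axis), against the summed normalized CPM of 18 other immediate early genes (horizontal axis), each point a library colored by group, replicate 2 of the double knockouts open. WT replicates 1 and 3, G3 mTerc-/-Puma+/+ replicate 2 and G3 mTerc-/-Puma-/- replicate 1 lie to the right, from 5570 to 8020 CPM, and are high in Plk2 and Plk3.

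Btg2, Plk2 and Epha2 share a sequence feature near the start that the choice of genes did not use: the letters TGACGTCA, the palindromic binding sequence of cyclic AMP response factors. They were in 3 of 39 windows of the members (7.69%), against 1.79% of all windows. The windows of Plk3 and Zfp36l1, also immediate early genes, did not hold them. The members' windows had a median GC of 61%, against 52.7% over all windows, and the part of GC content was not tested. TGACGTCA overlaps the shorter TGACG, also searched on both strands, which 28.2% of the members' windows and 20.8% of all windows held. The matches, in capitals, begin 166 bases before the start in Btg2 (chr1:134079289-134079346, minus strand), 62 in Plk2 (chr13:110394957-110395014, plus strand) and 33 in Epha2 (chr4:141301163-141301220, plus strand), from RefSeq windows of GRCm38.p6. A match is a description of the letters and does not show binding.
Btg2: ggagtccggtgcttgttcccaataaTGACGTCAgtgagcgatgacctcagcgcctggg
Plk2: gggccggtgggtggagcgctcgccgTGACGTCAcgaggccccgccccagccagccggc
Epha2: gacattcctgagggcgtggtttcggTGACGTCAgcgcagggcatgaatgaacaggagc

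The p53 decamer consensus was in 7 of 39 windows of the members (17.9%), of Abhd4, Aen, Ei24, Polk, Rps27l and Sesn1, against 8.36% of all windows, and no member's window held a pair of adjacent decamers, which 0.00913% of all windows held. The members were chosen as p53 targets, so their higher share is not independent evidence. The same Aen match was counted in both of that gene's overlapping windows, and the part of GC content was not tested. The stretches of Ei24, Aen and Rps27l are printed because these 3 genes lay above WT in all 4 G3 mTerc-/-Puma+/+ libraries. In Ei24 the match ends at the base before the start (chr9:36797310-36797369, minus strand). In Aen it begins 121 bases before the start of one transcript and 10 bases into another (chr7:78895912-78895971, plus strand). The Rps27l matches begin 210 and 107 bases before a downstream start (chr9:66946178-66946340, plus strand). They lie inside the gene as annotated from chr9:66946086, and the window at that annotated start held no match. Capitals mark the decamer.
Ei24: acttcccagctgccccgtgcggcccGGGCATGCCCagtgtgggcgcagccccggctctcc
Aen: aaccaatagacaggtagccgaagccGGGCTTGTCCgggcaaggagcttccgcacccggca
Rps27l: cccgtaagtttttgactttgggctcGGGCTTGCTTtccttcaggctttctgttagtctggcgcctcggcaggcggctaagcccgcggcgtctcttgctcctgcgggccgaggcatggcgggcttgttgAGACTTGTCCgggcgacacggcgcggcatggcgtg

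Rps27l, a ribosomal protein paralog, was the most abundant of the 35 genes per kilobase of exon in WT, at 124 CPM per kilobase. It was at 97.1, 103 and 104 CPM in WT, 78.9, 86.7, 116 and 87.8 in Puma-/-, 105, 161, 115 and 112 in G3 mTerc-/-Puma+/+ and 90.1, 143, 140 and 130 CPM in G3 mTerc-/-Puma-/-. G3 mTerc-/-Puma+/+ lay above WT, while the double knockouts did so in 3 of 4 libraries. The difference from Puma-/- was 1.33-fold in G3 mTerc-/-Puma+/+ (adjusted p = 0.21) and 1.30-fold in G3 mTerc-/-Puma-/- (adjusted p = 0.585). It is a paralog of Rps27, and how far reads that match both genes were left out of its count was not examined.

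Epha2 (ENSMUSG00000006445, GRCm38 chr4:141301240-141329384, plus strand), a receptor tyrosine kinase for membrane-bound ephrins, was high in the double knockouts and in no other group. It was at 19.2, 12.2 and 20.3 CPM in WT, 21.2, 19.1, 13.2 and 14.1 in Puma-/-, 25.7, 11.1, 18.2 and 18.7 in G3 mTerc-/-Puma+/+ and 38.5, 18.4, 38.1 and 36.1 CPM in G3 mTerc-/-Puma-/-. Without replicate 2, which fell among the other groups, the double knockouts lay above every other library. Such a pattern, the double knockouts above all 3 other groups, held for 3 of 35 genes (Zmat3, Traf4 and Epha2) and for 0.464% of all genes. Epha2 was 2.23-fold higher than in Puma-/- (log2 1.15, SE 0.248, adjusted p = 0.0757), 2.04-fold higher than in G3 mTerc-/-Puma+/+ (1.03, SE 0.247, adjusted p = 0.196), and its interaction term was 1.06 (SE 0.351, adjusted p = 0.776). With all 15 libraries the first of these was 0.96 (SE 0.279, adjusted p = 0.287).

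Sdc1 (ENSMUSG00000020592, GRCm38 chr12:8771323-8793715, plus strand), the heparan sulfate proteoglycan syndecan 1 (CD138), a defining surface protein of plasma cells, was the member that fell. It was at 18, 22.3 and 13 CPM in WT, 23.8, 24.0, 17.3 and 20.7 in Puma-/-, 9.29, 12.5, 7.41 and 12.4 in G3 mTerc-/-Puma+/+ and 19.5, 29.9, 26.1 and 17.7 CPM in G3 mTerc-/-Puma-/-. All 4 G3 mTerc-/-Puma+/+ libraries lay below all libraries of the other 3 groups, which overlapped one another. It fell 2.07-fold in G3 mTerc-/-Puma+/+ against Puma-/- (log2 -1.05, SE 0.204, adjusted p = 0.0429), a call lost in 4 of 12 other settings in which the difference was as large or larger: all 15 libraries in edgeR (log2 -1.05, adjusted p = 0.0828) or limma-voom (-1.08, 0.0837), the replicate block (-1.06, 0.0555) and Xist in the model (-1.16, 0.143). Leaving out 1 library at a time lost it in 10 of 14 fits (log2 -1.14 to -0.915, adjusted p 0.0503 to 0.113). It was kept without WT replicate 2 or 3, Puma-/- replicate 3 or G3 mTerc-/-Puma-/- replicate 3. It was 1.71-fold lower than in WT (-0.77, SE 0.217, adjusted p = 0.85) and 2.03-fold higher in G3 mTerc-/-Puma-/- than in G3 mTerc-/-Puma+/+ (1.02, SE 0.217, adjusted p = 0.122), with exact permutation p-values of 0.0286.

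Other genes of plasma cells were given beside it. The summed level of 5 of them was 488, 1330, 538 and 821 CPM in G3 mTerc-/-Puma+/+, against 1160 to 1670 CPM in WT, 1080 to 1520 in Puma-/- and 825 to 1460 in G3 mTerc-/-Puma-/- (2310 in replicate 2). In G3 mTerc-/-Puma+/+ against Puma-/-, 1 of 5 of these genes was above 0, with a median of -0.94, edgeR called none at an adjusted p under 0.05, and 3 were lower at an unadjusted p under 0.05. B lineage genes summed to 37.5 to 50.5 CPM in G3 mTerc-/-Puma+/+ and to 62.5 to 72.3 CPM in Puma-/-, and 0 of 7 were above 0 in that comparison. Replicate 2 of G3 mTerc-/-Puma+/+ had plasma cell genes near the WT level and Sdc1 at 12.5 CPM, the highest of its group. None of these marker genes was at 0 in any library. The part of plasma and B cells in the Sdc1 difference was not tested.

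**Figure D5:**
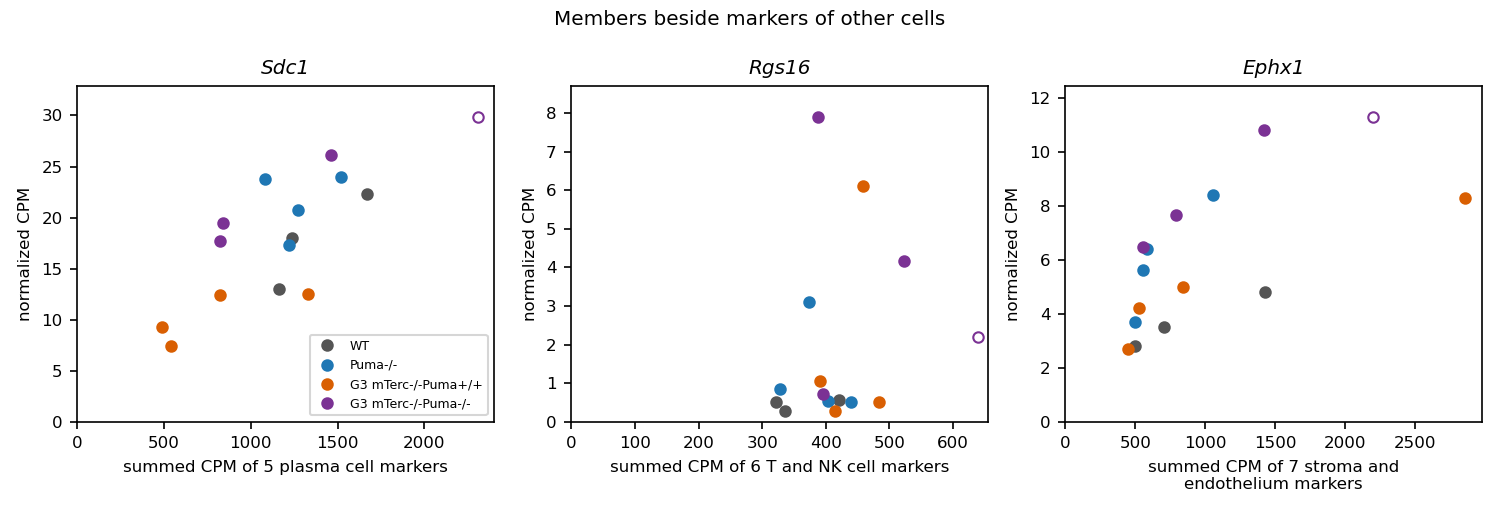
The panels plot the normalized CPM of Sdc1, Rgs16 and Ephx1 (vertical axes) in each library against the summed markers of another cell type (horizontal axes: 5 plasma cell, 6 T and NK cell and 7 stroma and endothelium genes, in normalized CPM). The G3 mTerc-/-Puma+/+ libraries are lowest for Sdc1, between 7.41 and 12.5 CPM, and 3 of the 4 also have the lowest plasma cell sums, while the other 2 sums do not order all libraries as Rgs16 and Ephx1 do.

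The other surface and secreted genes spread widely within groups. Rgs16, a brake on G protein signaling, was at 0.514, 0.559 and 0.266 CPM in WT, 0.849, 3.10, 0.519 and 0.528 in Puma-/-, 6.11, 0.512, 0.284 and 1.05 in G3 mTerc-/-Puma+/+ and 7.91, 2.20, 4.17 and 0.706 CPM in G3 mTerc-/-Puma-/-. High values came from 1 library each of Puma-/- and G3 mTerc-/-Puma+/+ and from 3 of 4 double knockouts, and the difference of G3 mTerc-/-Puma-/- from WT (log2 3.26, SE 1.16, adjusted p = 0.698) rested on them. The 6 T and NK cell markers, none of them at 0 in any library, summed to 322 to 421 CPM in WT, 328 to 439 in Puma-/-, 391 to 483 in G3 mTerc-/-Puma+/+ and 388 to 523 CPM in G3 mTerc-/-Puma-/- (639 in replicate 2). This sum did not order the libraries as Rgs16 did: Puma-/- replicate 2 (374 CPM) and G3 mTerc-/-Puma-/- replicate 1 (388 CPM), high in Rgs16, lay below G3 mTerc-/-Puma+/+ replicate 2 (483 CPM), where Rgs16 was at 0.512 CPM. A single gene of that list, Cd3e, picked after its values were seen, was highest in the 4 libraries highest in Rgs16, at 17.9 to 26.9 CPM against 3.61 to 14.8 CPM in the others. The part of T cells was not tested. Gdf15, a stress-induced secreted cytokine, ranged from 0.952 to 5.63 CPM with overlap of all groups.

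Among the metabolic genes, Ctsf, a lysosomal cysteine protease, set Puma-/- apart. It was at 2.19, 3.5 and 2.06 CPM in WT, 6.40, 5.41, 4.19 and 4.65 in Puma-/-, 3.4, 1.69, 2.65 and 3.30 in G3 mTerc-/-Puma+/+ and 3.88, 8.13, 3.62 and 4.02 CPM in G3 mTerc-/-Puma-/-. Puma-/- lay above all 3 other groups except for replicate 2 of the double knockouts. It was 2.00-fold higher in Puma-/- than in WT (log2 0.998, SE 0.254, adjusted p = 0.311) and 1.87-fold lower in G3 mTerc-/-Puma+/+ than in Puma-/- (-0.90, SE 0.231, adjusted p = 0.0804). The Y-linked Ddx3y was at 0.0448 CPM or less in Puma-/- and at 2.88 CPM or more in every other library. With Xist in the model, these differences of Ctsf were 0.84 (adjusted p = 0.525) and -0.67 (adjusted p = 0.365) on the log2 scale.

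Ak1, adenylate kinase 1, was at 1.29, 2.23 and 1.44 CPM in WT, 3.21, 2.39, 2.18 and 1.82 in Puma-/-, 2.58, 1.81, 2.88 and 1.54 in G3 mTerc-/-Puma+/+ and 2.58, 14, 5.66 and 3.71 CPM in G3 mTerc-/-Puma-/-. It is abundant in red cells. The highest value was that of replicate 2 of the double knockouts, which had the highest erythroid sum and also the highest value of 22 members. The erythroid sum did not order the other double knockouts as Ak1 did: it was 159 CPM in replicate 1 (Ak1 at 2.58 CPM) and 59.7 CPM in replicate 3 (Ak1 at 5.66 CPM). The part of red cells was not tested. Without replicate 2 the difference between G3 mTerc-/-Puma-/- and WT was 2.40-fold (adjusted p = 0.433). Ephx1, microsomal epoxide hydrolase, was at 3.52, 4.81 and 2.82 CPM in WT, 8.41, 6.41, 3.70 and 5.63 in Puma-/-, 8.27, 2.69, 4.99 and 4.20 in G3 mTerc-/-Puma+/+ and 7.65, 11.3, 10.8 and 6.48 CPM in G3 mTerc-/-Puma-/-. All double knockout libraries lay above all WT libraries, by 2.24-fold (log2 1.16, SE 0.379, adjusted p = 0.591). The 7 stroma and endothelium markers, none at 0 in any library, summed to 498 to 1430 CPM in WT, 496 to 1060 in Puma-/-, 452 to 2860 in G3 mTerc-/-Puma+/+ and 559 to 1420 CPM in G3 mTerc-/-Puma-/- (2200 in replicate 2). Several libraries were high in both, but this sum did not order all libraries as Ephx1 did: it was highest in G3 mTerc-/-Puma+/+ replicate 1 and was 1430 CPM in WT replicate 2, where Ephx1 was at 4.81 CPM, against 1060 CPM in Puma-/- replicate 1. A single gene of that list, Cxcl12, picked after its values were seen, was at 670 CPM in Puma-/- replicate 1 and at 1420 and 910 CPM in G3 mTerc-/-Puma-/- replicates 2 and 3, against at most 368 CPM in the other 12 libraries, and these were the 3 libraries highest in Ephx1. The part of stroma was not tested.

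Abhd4, a lipid hydrolase, Dcxr, a carbonyl reductase, and Bloc1s2, a subunit of lysosome-related organelle complexes, varied little. Abhd4 lay between 38.3 and 52.3 CPM in the 14 libraries, Dcxr between 12.2 and 18.4 CPM and Bloc1s2 between 70.2 and 88.1 CPM. Zfp36l1, which recruits the deadenylation machinery to AU-rich mRNA, was at 22.0, 13.1 and 16.4 CPM in WT, 18.2, 26.3, 12.9 and 18.5 in Puma-/-, 11.7, 13.4, 12.6 and 11 in G3 mTerc-/-Puma+/+ and 30.1, 20.7, 14.9 and 13.7 CPM in G3 mTerc-/-Puma-/-. The lowest mean was that of G3 mTerc-/-Puma+/+, which lay below the double knockouts without overlap (1.61-fold, adjusted p = 0.685). In all, 55.9% of its exonic bases lie within the antisense gene Gm26669, so its count is uncertain where strand was not used.

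For comparison, 23 other genes of the p53 pathway that are not among the 35 were read from the same tests. They hold genes of the loop, such as Mdm2, Ccng1 and Cdkn1a, and others such as Atm, Atr, Chek1 and Chek2. Their medians are therefore not those of the loop alone. In G3 mTerc-/-Puma-/- against Puma-/-, 18 of 23 were above 0 with a median of 0.13, and 3 rose: Cdkn1a, the p21 cyclin-dependent kinase inhibitor (log2 1.90, adjusted p = 0.00594), Ccng1, cyclin G1 (0.75, adjusted p = 0.0253), and Bbc3 (1.48, adjusted p = 0.0345), the targeted gene. In G3 mTerc-/-Puma+/+ against WT, 13 of 23 were above 0 with a median of 0.004, edgeR called none, and 3 were higher at an unadjusted p under 0.05. Cdkn1a was at 42.0, 22.1 and 56.5 CPM in WT, 26.9, 24.9, 23.6 and 23.7 in Puma-/-, 57.2, 56.7, 77.8 and 37.7 in G3 mTerc-/-Puma+/+ and 111, 167, 88.1 and 79.6 CPM in G3 mTerc-/-Puma-/-. Unlike Zmat3, Phlda3 and Eda2r, it overlapped between WT and G3 mTerc-/-Puma+/+. Trp53, at 190 to 231 CPM in the 15 libraries, and Mdm2, at 59.1 to 85.7 CPM, were not called in any comparison.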

How the data were processed

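RNA of lineage negative bone marrow cells was sequenced after poly(A) selection and stranded TruSeq library preparation. Per the labels and the study's methods, the authors trimmed reads with Trimmomatic 0.38, aligned them to GRCm38 (mm10) with STAR 2.5.2b and deposited its raw read counts per gene, not normalized. The annotation release and the strand column counted are not given in the sources used here, which matters for genes with an antisense neighbor. The deposited count table holds 45706 genes in 15 libraries, 14977 of them at 0 throughout. Of all identifiers, 45143 had a symbol and those without held 0.0643% of counts. Reads were not tagged with molecular identifiers, so limits set by 3 counts cover counting error only.

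Genes were filtered by edgeR's filterByExpr, scaled by TMM (factors 0.926 to 1.07) and tested with edgeR 4.0.16 in R 4.3.3 (quasi-likelihood, 4 groups, 18983 genes, common biological coefficient of variation 0.251), with Benjamini-Hochberg adjustment over all genes and a threshold of 0.05. A prior count of 2 was used for log2 CPM in the covariates and replicate correlations, and none was set for fold changes. The SE is the log2 fold change divided by the root of the F statistic. G3 mTerc-/-Puma-/- replicate 2, which the study's heatmaps do not draw, was left out of the fit, and all 15 libraries were an alternative, with 19146 genes tested. Normalized CPM were scaled over all 15 libraries. Exact two-sided permutation tests used log2 (CPM + 0.05). Replicates of a group differed beyond sampling noise in all 21 pairs (chi-square per gene 38.3 to 706). DESeq2 1.42.0 and limma 3.58.1 (voom) were alternatives, with other scalings and filters, a replicate block, an Xist covariate and single libraries left out.

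The members and lists were chosen with earlier results of these data known. Named with values in every library were members with an adjusted p under 0.05 in any of the 7 comparisons or an unadjusted p under 0.05 in at least 2, and other members by range. Values in every library were also given for others where a result turned on them, chosen after their values were seen. Gene positions are those of the GENCODE annotation on GRCm38. Promoter windows were read from RefSeq (GRCm38.p6), and no window was at hand for Ddb2, Xpc, Perp, Tnfrsf10b, Rrm2b and Zmat3.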

Additional observations from a re-analysis of the deposited data

Results flagged for a closer look

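In groups of 4 libraries, a gene was singled out when the gap between its most extreme library and the next took up more of the group's range than Dixon's 95% critical value allows. Chance gives about 1 in 20 of the 105 groups examined, and 18 were found, 10 of them in G3 mTerc-/-Puma-/- replicate 2. In that library Ctsf (8.13 CPM), Ddb2 (15.8), Eda2r (8.39), Polk (22.7), Psrc1 (108), Ptpn14 (6.02), Tnfrsf10b (11.4) and Traf4 (34.0) were far above their group, and Epha2 (18.4 CPM) and Triap1 (22.8) far below. In the other libraries these were Btg2 (175 CPM) and Plk2 (19.4) in G3 mTerc-/-Puma-/- replicate 1, Rgs16 (6.11) and Ptpn14 (1.91) in G3 mTerc-/-Puma+/+ replicate 1, Plk3 (34.8) in its replicate 2, Rgs16 (3.10) and, as the lowest, Xpc (92.9) in Puma-/- replicate 2, and Bloc1s2 (85.6) in Puma-/- replicate 3.

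G3 mTerc-/-Puma-/- replicate 2, which the tests left out, held the highest of all 15 values for 22 members, above the control libraries too. Besides those named above with high values these were Abhd4 (58.5 CPM), Aen (66.2), Ak1 (14), Dcxr (18.8), Ei24 (71.3), Ephx1 (11.3), Ercc5 (29.2), Fas (6.20), Gdf15 (5.63), Phlda3 (34.4), Sdc1 (29.9), Sesn2 (30.5), Zfp365 (3.79) and Zmat3 (42.4). It was the lowest of 15 for Rrm2b, Triap1 and Bloc1s2. The same library had the lowest sum of immediate early genes (1870 CPM), the lowest progenitor sum (762 CPM against 997 to 1390) and late neutrophil genes at 4510 CPM. What part these differences in cells play in its p53 target levels was not tested.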

How the results depend on the processing

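Each comparison was recomputed with other processing. Zmat3 rose in G3 mTerc-/-Puma-/- against Puma-/- in all 26 alternatives (log2 1.68 to 2.40, adjusted p 8.41e-11 to 0.0459), and Phlda3 in 24 of 26, lost under the replicate block (adjusted p = 0.0701) and without G3 mTerc-/-Puma-/- replicate 3 (0.0555). Of the other values for single members, 2 reversed: with the immediate early covariate Btg2 was at 0.0464 in G3 mTerc-/-Puma+/+ against WT, and its interaction term at -0.0938. Among the alternatives, the number of members called changed as follows. For G3 mTerc-/-Puma+/+ against WT, 1 was higher without a count filter (10 of 30542 genes) and 3 by DESeq2 (46 of 18952), against 0 (7 genes). For G3 mTerc-/-Puma-/- against Puma-/- it was 4 without a filter (77 of 30542 genes) and 8 by DESeq2 (287 of 18952), against 2 (58 genes). Under the block it was 1 (21 genes). DESeq2 called 2 in G3 mTerc-/-Puma-/- against G3 mTerc-/-Puma+/+ (172 of 18952 genes) and 1 in Puma-/- against WT (136 of 18216). For G3 mTerc-/-Puma+/+ against Puma-/-, 0 were lower with 15 libraries in edgeR (24 of 19146 genes) or limma-voom (15 of 19146), against 1 (152 genes). The number was also 0 under the block (43 genes) or with the Xist covariate (18 genes), and 2 with the immediate early covariate (340 genes). DESeq2 called 3 lower and 3 higher (996 of 17118 genes). For G3 mTerc-/-Puma-/- against WT, 1 was higher with 15 libraries in edgeR (8 of 19146 genes) or limma-voom (10 of 19146), against 3 (12 genes). The number was also 1 under the block (12 genes) or with the immediate early covariate (10 genes). It was 2 (Eda2r lost) by limma-voom (13 genes), with library size alone (11 genes) or with the Xist covariate (12 genes). The filter of 1 CPM (9 of 13395 genes) and the compared groups alone (5 of 18091) also gave 2 without Eda2r, and DESeq2 gave 8 (91 of 18584).

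The members' median log2 fold change moved by more than its spread between libraries (SD 0.0538) mainly with replicate 2 included, in edgeR and in limma-voom: to 0.445 and 0.438 in G3 mTerc-/-Puma-/- against Puma-/-, 0.468 and 0.499 against G3 mTerc-/-Puma+/+, 0.41 and 0.388 against WT, and 0.306 and 0.299 for the interaction. Against WT it was 0.324 under the block and 0.319 without the members in the immediate early list. In Puma-/- against WT it was 0.152 with library size alone. The causes of these shifts were not tested.

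Leaving out 1 library at a time gave medians of 0.226 to 0.315 in G3 mTerc-/-Puma-/- against Puma-/-, 0.225 to 0.345 against G3 mTerc-/-Puma+/+, 0.237 to 0.361 against WT, 0.0272 to 0.252 for the interaction, 0.00692 to 0.113 in Puma-/- against WT, 0.054 to 0.134 in G3 mTerc-/-Puma+/+ against WT and 0.062 to 0.124 in G3 mTerc-/-Puma+/+ against Puma-/-. In G3 mTerc-/-Puma-/- against Puma-/- the number higher was lowest, 1, without G3 mTerc-/-Puma-/- replicate 3, where 18 of 19385 genes were called either way. It was highest, 5, without G3 mTerc-/-Puma+/+ replicate 2, where 93 of 18976 were. Against WT it ranged from 0 (without WT replicate 1 or 3, with 4 of 19415 and 1 of 19390 genes called) to 3 (11 to 16 genes called). In G3 mTerc-/-Puma+/+ against WT it ranged from 0 to 1 (without G3 mTerc-/-Puma+/+ replicate 2, with 7 of 18976 genes called). The number lower in G3 mTerc-/-Puma+/+ against Puma-/- ranged from 0 to 1, while 18 to 228 genes were called either way. Same-numbered replicates did not deviate together (r -0.251 to 0.174 over 18 pairs, 3 above 0.1, and 3 of 14 libraries correlated best with their own number), so the numbers were not taken as pairs. The block lowered the genes called from 58 to 21 in G3 mTerc-/-Puma-/- against Puma-/-. Depth limits Eda2r and Zfp365 in WT most, at 6 to 24 and 9 to 24 counts. Smaller changes of single members than these 14 libraries resolve may be present.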
